A study of Pan troglodytes and Macaca mulatta with 12 samples.

Results

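Ligands and receptors of the tumour necrosis factor (TNF) superfamily were compared between lymphoblastoid cell lines of chimpanzee and rhesus macaque. The set is a list of 10 genes, 3 ligands and 7 receptors, beside 16903 genes with at least 1 count in these data. The list pairs each symbol with an Ensembl identifier, and its rule uses no measured level. The ligands were TNFSF13B, CD70 and TNFSF9, and the receptors TNFRSF13C, TNFRSF17, CD27, TNFRSF9, TNFRSF8, TNFRSF1B and FAS. RNA was sequenced from 12 lines, each from another animal and each read as 1 library. The chimpanzee group held 3 female and 3 male lines, and the rhesus macaque group 2 female and 4 male lines. Replicate numbers follow the order of the records and pair nothing. All lines share 1 culture protocol, and no treatment, age, or means of immortalisation is named in the labels. Lymphoblastoid lines are as a rule grown out from B cells, and with 1 line per animal a difference between animals and a difference between cultures cannot be told apart. Human lines of the same study were not analysed here.

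Ligands of this superfamily are trimeric proteins, most of them made at the cell surface, and they cluster their receptors on the same or a neighbouring cell. Receptors that bind TRAF adaptors turn on NF-kB signalling and cell survival, while those with a death domain, such as FAS, can start apoptosis. In B cells the family sets survival (TNFSF13B, known as BAFF, and its receptors), memory and plasma cell fate (CD27, TNFRSF17) and the response to T cells (CD70, TNFRSF8, TNFRSF9). In human lines made with Epstein-Barr virus, a viral protein that mimics CD40, another receptor of the family, signals without a ligand. These roles are known from human and mouse.

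The libraries held 1434241 to 4751954 counts each. Exons were added up per gene and levels are given as CPM, counts per 1000000 counts of a TMM-scaled library. Of the 10 genes, 9 had counted exons, 44 in all, and these 9 passed the filter on low counts. TNFSF9 (ENSG00000125657), the ligand of TNFRSF9, had no exon listed in any of the 12 libraries. The files list only exons with at least 1 count, and they do not show whether the exons of TNFSF9 were among those counted, so no limit is given for it. None of the 44 exons overlapped a listed exon of another gene. No table used here pairs the files' identifiers with the symbols of B cell markers or of other TNF superfamily genes, so the cell type was not checked against markers and no other family member is described. These are bulk libraries, in which fewer cells making a transcript and less transcript per cell cannot be told apart.

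Chimpanzee and rhesus macaque lines differed in 2 receptors of mature B cells, in opposite directions. TNFRSF17 was 7.03-fold higher in chimpanzee and CD27 was 4.17-fold higher in rhesus macaque. Both passed the test of the species difference (edgeR quasi-likelihood test, adjusted p under 0.05), which 2 of 9 genes (22.2%) did against 48.2% of all 9440 genes tested. By direction, 1 of 9 was higher in chimpanzee against 24.7% of all genes, and 1 of 9 was lower against 23.5%. The same 2 genes passed a test for a difference of more than 2-fold, as did 17.2% of all genes (8.74% higher and 8.51% lower in chimpanzee). They were also the 2 in which the lines of the species did not overlap, as in 27.1% of all genes (13.3% with chimpanzee above and 13.8% with chimpanzee below). An earlier description of these data set apart 3 libraries, chimpanzee replicate 1 and rhesus macaque replicates 5 and 6. Without them 1 of the 9 genes was called higher and 1 lower, as with all libraries, against 49.2% of 9809 genes called in either direction. TNFRSF17 then differed by 3.42 on the log2 scale (edgeR adjusted p = 5.69e-05) and CD27 by -1.73 (edgeR adjusted p = 0.0201). The median size of the log2 difference was 0.88 over the 9 genes and 0.71 over all genes, and the signed medians were 0.44 and 0.041. Differences are given as chimpanzee minus rhesus macaque throughout.

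**Figure D1:**
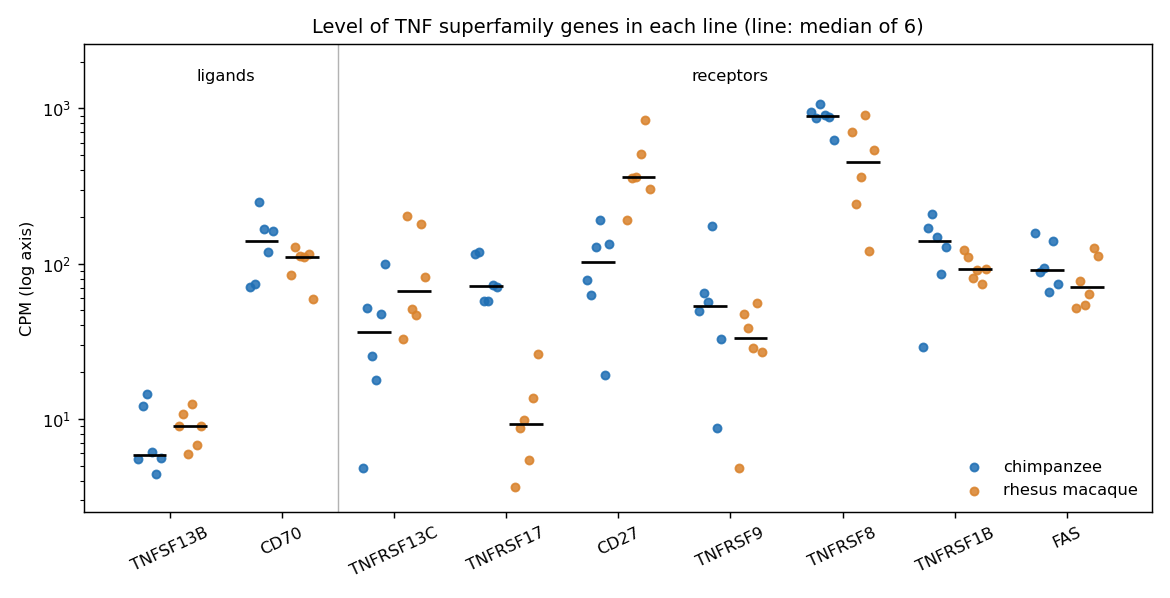
Level of each gene in CPM (log axis) in 6 chimpanzee and 6 rhesus macaque lines, with the median of each species as a line and ligands to the left of the receptors. The lines of the 2 species lie apart for TNFRSF17 and, narrowly, for CD27, and overlap for the other genes.

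Of the ligands, TNFSF13B was read weakly in both species. TNFSF13B (ENSG00000102524, chromosome 13 from 107719978 to 107757366, 5 counted exons) is the survival factor of mature B cells. In chimpanzee it stood at 4.39, 5.87 and 14.5 CPM (lowest, median and highest of 6 lines), and in rhesus macaque at 5.92, 9.02 and 12.5 CPM. Each of these values rests on few reads, between 8 and 39 counts per chimpanzee library and between 12 and 42 per rhesus macaque library. The lines of the species overlapped, and the log2 difference was -0.16 with a 95% interval from -0.90 to 0.59 (edgeR adjusted p = 0.735).

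CD70 (ENSG00000125726), the ligand of CD27 and a protein of activated lymphocytes, was read on 1 exon of 312 bases on chromosome 19 from 6541852 to 6542163. Chimpanzee lines held 71.1, 140.8 and 248 CPM (lowest, median and highest), and rhesus macaque lines 59.5, 111 and 129 CPM. Of the 6 chimpanzee lines, 3 (replicates 3, 4 and 6) lay above every rhesus macaque line, and the other 3 lay within their range. The log2 difference of 0.47 had a 95% interval from -0.18 to 1.11 (edgeR adjusted p = 0.219). The 3 high chimpanzee lines are the 3 females, and in male lines alone the difference was -0.11 (edgeR adjusted p = 0.836; over all alternatives from 0.102 to 0.836).

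Among the receptors that bind TNFSF13B, TNFRSF17 separated the species and TNFRSF13C did not. TNFRSF17 (ENSG00000048462, chromosome 16 from 11966465 to 11969426, 3 counted exons), known as BCMA, is the receptor by which plasma cells receive survival signals. Its levels in the chimpanzee lines, replicates 1 to 6, were 115, 118, 57.2, 57.6, 72.7 and 71.1 CPM. In the rhesus macaque lines, replicates 1 to 6, they were 3.62, 8.79, 9.86, 5.44, 13.6 and 26.3 CPM. The lowest chimpanzee line thus stood well above the highest rhesus macaque line, replicate 6. The mean over 6 lines was 82.0 ± 27.8 CPM (SD) in chimpanzee, against 11.3 ± 8.16 CPM in rhesus macaque. The log2 difference was 2.81 with a standard error of 0.41 and a 95% interval from 1.93 to 3.70 (edgeR adjusted p = 8.19e-05, and 0.000795 for a difference beyond 2-fold). Rhesus macaque libraries held between 6 and 123 counts of the gene, against 151 to 366 in chimpanzee.

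TNFRSF13C (ENSG00000159958, chromosome 22 from 40650991 to 40652281, 2 counted exons), the BAFF receptor on which naive B cells depend, varied widely within both species. Its lowest, median and highest values were 4.83, 36.4 and 99.8 CPM over the chimpanzee lines, and 32.6, 66.4 and 202.7 CPM over those of rhesus macaque. The lowest value, in chimpanzee replicate 1, rests on 7 counts. The ranges overlapped between 32.6 and 99.8 CPM, and the log2 difference of -1.25, with a 95% interval from -2.54 to 0.044, did not pass (edgeR adjusted p = 0.101). Without chimpanzee replicate 6, the highest of its species, the difference was -1.74 (edgeR adjusted p = 0.0317). Without the stronger of its 2 exons it was -1.71 (edgeR adjusted p = 0.0486). Over all alternatives the adjusted p ran from 0.0317 to 0.315.

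CD27 (ENSG00000139193, chromosome 12 from 6424851 to 6431145, 5 counted exons), the receptor of CD70 and a marker of memory B cells in human, was higher in rhesus macaque. The chimpanzee lines, replicates 1 to 6, held 78.7, 63.3, 128, 189.8, 19.2 and 135 CPM. The rhesus macaque lines, replicates 1 to 6, held 191, 355, 363, 505, 839.8 and 305 CPM. The species did not overlap, but the gap was narrow, from 189.8 CPM in chimpanzee replicate 4 to 191 CPM in rhesus macaque replicate 1. The means were 102 ± 60.6 CPM and 427 ± 226 CPM (SD, n = 6 each). The log2 difference was -2.06 with a standard error of 0.47 and a 95% interval from -3.06 to -1.05 (edgeR adjusted p = 0.00257, and 0.0311 for a difference beyond 2-fold).

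**Figure D2:**
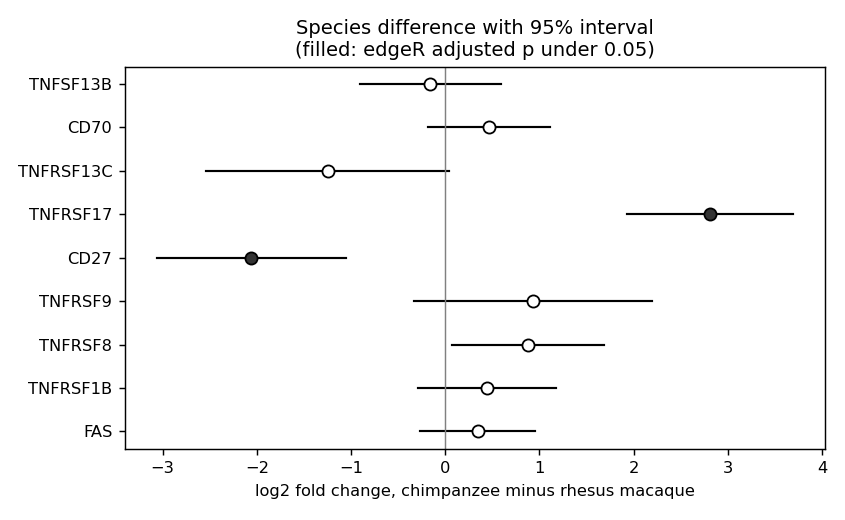
Log2 difference, chimpanzee minus rhesus macaque, with its 95% interval for the 9 measured genes (filled points passed the edgeR test, open points did not). TNFRSF17 lies at 2.81 and CD27 at -2.06, and the intervals of TNFSF13B, CD70, TNFRSF13C, TNFRSF9, TNFRSF1B and FAS include 0.

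The other receptors were not called between the species. TNFRSF9 (ENSG00000049249, chromosome 1 from 7915809 to 7922725, 6 counted exons), known as 4-1BB, is a costimulatory receptor of activated lymphocytes. The chimpanzee lines held 8.78, 53.1 and 176 CPM (lowest, median and highest), against 4.83, 33.5 and 55.9 CPM for rhesus macaque. Only 3 chimpanzee lines, replicates 2, 3 and 4, lay above all rhesus macaque lines. The log2 difference of 0.93 had a 95% interval from -0.33 to 2.20 (edgeR adjusted p = 0.207). It was 0.31 without chimpanzee replicate 4, the line at 176 CPM (edgeR adjusted p = 0.656; over all alternatives from 0.0804 to 0.662).

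TNFRSF8 (ENSG00000120949, chromosome 1 from 12046021 to 12126851, 10 counted exons), known as CD30, marks activated lymphocytes and the tumour cells of Hodgkin lymphoma in human. Its libraries held 465 to 3213 counts of the gene. The chimpanzee lines, replicates 1 to 6, held 955, 864, 1064, 909, 881 and 624 CPM. The rhesus macaque lines, replicates 1 to 6, held 710, 243, 363, 909.9, 122 and 539.9 CPM. Rhesus macaque replicate 4 lay among the chimpanzee lines and replicate 1 above the lowest of them, while the other 4 lay below all chimpanzee lines. The log2 difference of 0.88, with a 95% interval from 0.066 to 1.68, did not pass after adjustment (edgeR adjusted p = 0.0691). Without rhesus macaque replicate 4 the difference was 1.14 (edgeR adjusted p = 0.0202). It was also called with library totals alone, at 0.99 (edgeR adjusted p = 0.0369), and with limma-voom (limma adjusted p = 0.025). Over all alternatives the adjusted p ran from 0.0202 to 0.159.

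TNFRSF1B (ENSG00000028137, chromosome 1 from 12173601 to 12184815, 7 counted exons) is a receptor of tumour necrosis factor that lacks a death domain. Lowest, median and highest were 29.0, 139 and 209 CPM for chimpanzee, and 73.7, 91.9 and 122 CPM for rhesus macaque. Chimpanzee replicate 1 lay below every other line of either species, and 4 of the other 5 chimpanzee lines lay above all rhesus macaque lines. The log2 difference was 0.44 with a 95% interval from -0.30 to 1.17 (edgeR adjusted p = 0.309). Without chimpanzee replicate 1 it was 0.64 (edgeR adjusted p = 0.031), and in male lines alone it was -0.083 (edgeR adjusted p = 0.914). Over all alternatives the adjusted p ran from 0.031 to 0.914.

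FAS (ENSG00000026103, chromosome 10 from 90740268 to 90764556, 5 counted exons), the death receptor by which activated B cells can be removed, had much the same range in both species. It reached from 65.6 over a median of 91.2 to 159 CPM in the chimpanzee lines, and from 51.9 over 70.8 to 127 CPM in those of rhesus macaque. The log2 difference was 0.34 with a 95% interval from -0.27 to 0.96 (edgeR adjusted p = 0.341). It turned to -0.15 without the exon that holds most of its counts (edgeR adjusted p = 0.673; over all alternatives from 0.08 to 0.673).

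Levels of different genes were set beside each other as CPM per kb of counted exon. In chimpanzee the highest median was that of CD70, at 451 CPM per kb, followed by TNFRSF8 at 289, TNFRSF1B at 149.9 and CD27 at 106. TNFRSF17 at 72.3, TNFRSF9 at 69.6, FAS at 65.4 and TNFRSF13C at 48.8 CPM per kb came next. TNFSF13B was last at 5.57 CPM per kb. In rhesus macaque CD27 came first at 369 CPM per kb, then CD70 at 356 and TNFRSF8 at 146. They were followed by TNFRSF1B at 99.1, TNFRSF13C at 89.1, FAS at 50.8 and TNFRSF9 at 43.9 CPM per kb. TNFRSF17 at 9.38 and TNFSF13B at 8.57 CPM per kb were last. CD27 thus moved from place 4 in chimpanzee to place 1 in rhesus macaque, and TNFRSF17 from place 5 to place 8. Every gene overlapped the next one in the order in its range over lines, in both species, so single steps of the order lie within the spread. Counted length counts only exons with reads, and for CD70 it is 1 exon.

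The CD27 receptor and its ligand stood in a different proportion in the 2 species. The ratio of CD27 to CD70, both in CPM per kb of the same line, was 0.0518, 0.270 and 0.366 in chimpanzee and 0.726, 1.25 and 2.34 in rhesus macaque (lowest, median and highest). On this scale CD70 exceeded CD27 in 6 of 6 chimpanzee lines, while CD27 exceeded CD70 in 4 of 6 rhesus macaque lines, and the ranges did not overlap. Which gene is higher rests on counted length, 1 exon of 312 bases for CD70 against 973 bases for CD27. In plain CPM, CD27 exceeded CD70 in every rhesus macaque line and in chimpanzee replicates 1 (78.7 against 71.1) and 4 (189.8 against 166). The lack of overlap does not depend on length, which scales all lines alike. The ratio of TNFRSF17 to TNFRSF13C, both receptors of TNFSF13B, was 0.534, 1.70 and 17.9 in chimpanzee and 0.0325, 0.0853 and 0.242 in rhesus macaque. TNFRSF17 was the higher of the pair in 5 of 6 chimpanzee lines and in 0 of 6 rhesus macaque lines, again with no overlap. The 17.9 came from chimpanzee replicate 1, with its 7 counts of TNFRSF13C, and the next highest line stood at 2.41. Of 5 ratios computed, a further one, TNFRSF17 to TNFSF13B, did not overlap either, at 4.18 to 22.1 in chimpanzee and 0.424 to 3.10 in rhesus macaque. The other 2 overlapped. TNFRSF13C to TNFSF13B ran from 1.24 to 25.05 in chimpanzee and from 5.09 to 37.2 in rhesus macaque. TNFRSF8 to TNFRSF1B, which lie side by side on chromosome 1, ran from 1.45 to 9.87 and from 0.494 to 2.99. These ratios combine genes whose own differences are given above and were not tested.

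**Figure D3:**
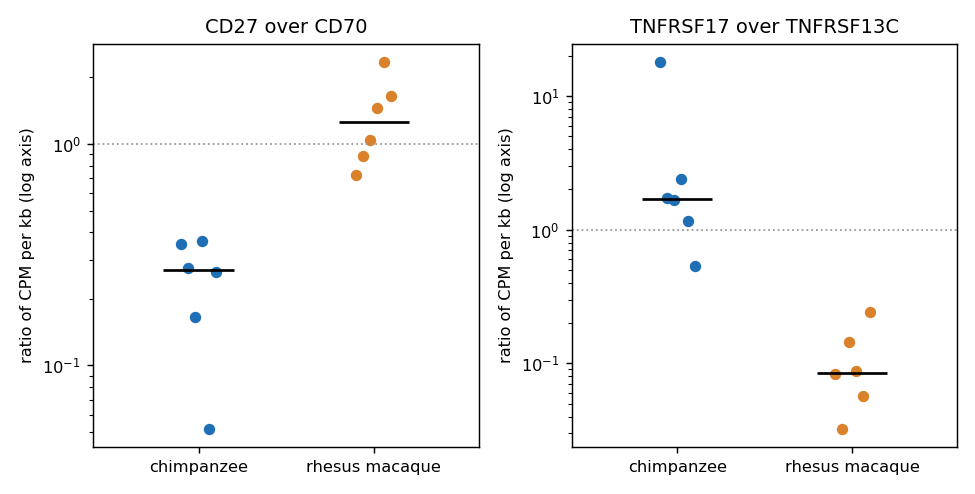
Ratio of CD27 to CD70 (left) and of TNFRSF17 to TNFRSF13C (right) in each line, in CPM per kb on a log axis, with the median of each species as a line and a dotted line at equal levels. The chimpanzee lines reach 0.366 for the first ratio and the rhesus macaque lines begin at 0.726. For the second the rhesus macaque lines end at 0.242 and the chimpanzee lines begin at 0.534.

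The species differences of TNFRSF17 and CD27 were spread over their exons. All 3 exons of TNFRSF17 were higher in every chimpanzee line than in every rhesus macaque line. The first exon, of 348 bases, stood at 14.2 and 2.62 CPM (means of chimpanzee and rhesus macaque), the second, of 147 bases, at 13.0 and 1.31 CPM, and the third, of 499 bases, at 54.9 and 7.34 CPM. The rhesus macaque libraries together held 55, 28 and 153 counts on these exons, so their values per line rest on few reads. How many exons of all genes lie apart between the species was not counted. All 5 exons of CD27 had a lower mean in chimpanzee, with log2 ratios of means from -2.31 to -1.25. Only its exon 5, of 451 bases, had no overlap between the species. The share of the gene's reads on that exon, singled out after its values were seen, was 48.5% ± 5.96 (SD, 6 lines) for chimpanzee and 59.9% ± 6.29 for rhesus macaque. The other exons of CD27 took smaller mean shares in rhesus macaque, among them exon 4 with 13.2% ± 2.36 in chimpanzee and 6.70% ± 1.53 in rhesus macaque. The drop was thus not even over the exons. TNFRSF8, TNFRSF9 and TNFRSF1B had higher means in chimpanzee in 10 of 10, 6 of 6 and 7 of 7 exons. Both exons of TNFRSF13C were lower in chimpanzee, and the 5 exons of TNFSF13B went both ways, 3 higher and 2 lower. The gene totals are sums of these exons, so their directions are not independent of the totals.

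The use of exons within a gene was tested with the gene's own level taken out. None of the 8 genes with more than 1 tested exon was called (0 of 8, edgeR diffSpliceDGE with the Simes method), against 4.27% of 9970 genes. The smallest value was that of FAS (edgeR adjusted p = 0.54), whose exons are given here for that reason. The first exon of FAS (376 bases, starting at 90740268 and ending at 90740643) took 11.9% ± 5.64 of its reads (SD, 6 lines) in chimpanzee, against 20.2% ± 3.88 in rhesus macaque. The last exon, of 710 bases, took 62.1% ± 7.87 and 53.3% ± 6.23. The first exon had an unadjusted p of 0.0235 (edgeR adjusted p = 0.393 over 87939 exons, of which 0.852% were called), and a gene-level F test gave FAS an unadjusted p of 0.0256 (edgeR adjusted p = 0.113). By the Simes method FAS had an unadjusted p of 0.118, so only the F test put it under 0.05 before adjustment, and neither method put any other of the 8 there.

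Sex, the only other label, was compared within each species. No gene was called in either species, nor for a different sex effect in the 2 species (0 of 11045 genes each, edgeR), while an unadjusted p under 0.05 was found for 7.14% of genes among chimpanzee lines, 2.38% among rhesus macaque lines and 5.12% for the difference. DESeq2 called 49, 0 and 14 genes, and 0 of the 9. The 3 genes whose sexes did not overlap in at least 1 species are described here, chosen after their values were seen. How many of all genes separate the sexes in this way was not counted. Without that count the 3 cannot be set against a background, and each sex is held by few lines. CD27 was higher in every female than in every male line of its own species. In chimpanzee it ran from 128 to 189.8 CPM in 3 females and from 19.2 to 78.7 CPM in 3 males (log2 difference 1.51, edgeR adjusted p = 0.51). In rhesus macaque it ran from 505 to 839.8 CPM in 2 females and from 191 to 363 CPM in 4 males (log2 difference 1.16, edgeR adjusted p = 1). Within a sex the species lay further apart than when pooled, since the highest male chimpanzee line stood at 78.7 and the lowest male rhesus macaque line at 191 CPM. With sex as a term, the species difference of CD27 was -2.36 (standard error 0.32, edgeR adjusted p = 6.88e-05; over all alternatives from 2.97e-05 to 0.0201).

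CD70 ran from 163 to 248 CPM in female and from 71.1 to 119 CPM in male chimpanzee lines (log2 difference 1.13, edgeR adjusted p = 0.51). In rhesus macaque the 2 females, at 111 and 115 CPM, lay within the range of the 4 males, from 59.5 to 129 CPM (edgeR adjusted p = 1). The difference between these 2 sex effects did not pass (0.88 on the log2 scale, edgeR adjusted p = 0.943). TNFRSF17 was lower in every female chimpanzee line, at most 71.1 CPM, than in every male one, at least 72.7 CPM (edgeR adjusted p = 0.856). The other 6 genes overlapped between the sexes in both species.

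**Figure D4:**
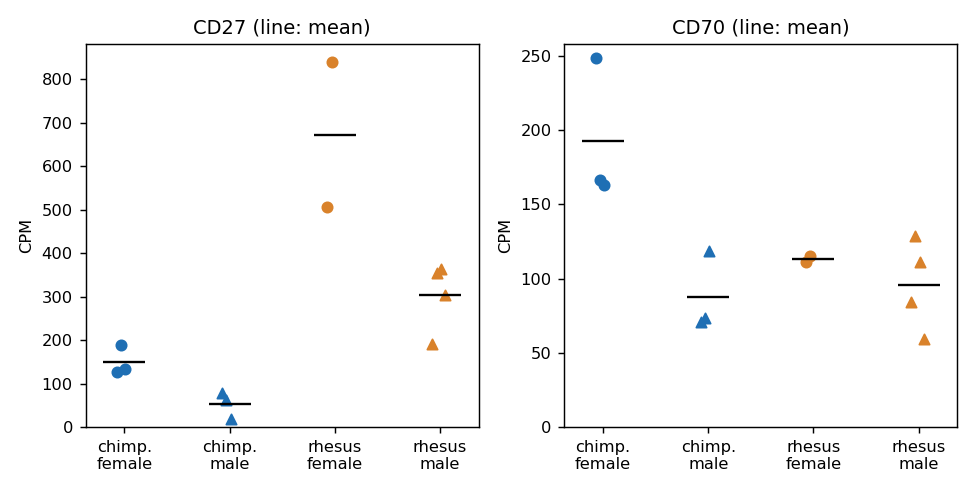
CD27 (left) and CD70 (right) in CPM by species and sex, each point 1 line (circles female, triangles male) with the mean as a line. CD27 is higher in the females of both species, while CD70 separates the sexes in chimpanzee and not in rhesus macaque. No sex difference passed adjustment.

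The spread between lines differed from gene to gene. It is given as the SD of log2 CPM over 6 lines, whose median over all tested genes was 0.48 in chimpanzee and 0.45 in rhesus macaque. TNFRSF9 and TNFRSF13C had the largest SDs of the 9 genes in chimpanzee, 1.38 and 1.46. In rhesus macaque TNFRSF9 had the largest, 1.21, followed by TNFRSF8 and TNFRSF13C, both at 1.07. Their chimpanzee values lay above those of 95.6% and 96.3% of all genes, and their rhesus macaque values above 94.9% and 92.6%. Single lines set part of this. Without chimpanzee replicate 1 the SD of TNFRSF13C was 0.94, and without chimpanzee replicate 5 that of TNFRSF9 was 0.89. Without rhesus macaque replicate 1 the SD of TNFRSF9 there was 0.44.

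TNFRSF8 and TNFRSF1B, which lie next to each other, spread in opposite species. TNFRSF8 had an SD of 0.26 in chimpanzee, above 12.4% of genes, and of 1.07 in rhesus macaque, above 92.6%. TNFRSF1B had an SD of 1.02 in chimpanzee, above 89.7% of genes, and of 0.27 in rhesus macaque, above 16.6%. Without chimpanzee replicate 1 the SD of TNFRSF1B was 0.48, near the median of all genes. Without chimpanzee replicate 6 that of TNFRSF8 was 0.12. CD27 had SDs of 1.16 and 0.72, and without chimpanzee replicate 5 its chimpanzee value was 0.63. TNFRSF17 spread more in rhesus macaque (0.93) than in chimpanzee (0.47), at a much lower count. CD70 had SDs of 0.71 in chimpanzee and 0.41 in rhesus macaque, and without rhesus macaque replicate 6 the latter was 0.22. TNFSF13B stood at 0.64 and 0.37, and FAS at 0.50 and 0.53. Above the median of all genes were 7 of 9 genes in chimpanzee and 6 of 9 in rhesus macaque. No test was made of these spreads.

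**Figure D5:**
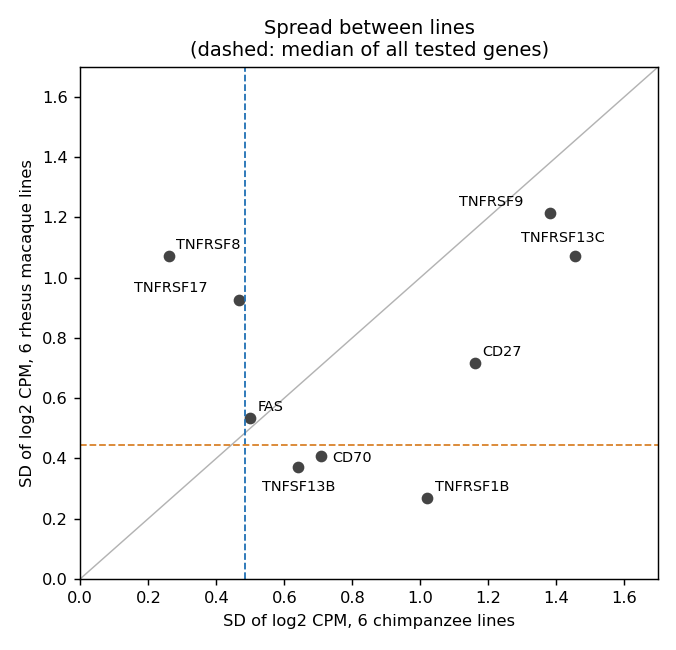
SD of log2 CPM over 6 chimpanzee lines (x axis) and 6 rhesus macaque lines (y axis) for the 9 genes, with dashed lines at the medians of all tested genes and a diagonal of equal spread. TNFRSF8 and TNFRSF17 lie above the diagonal, FAS close to it, and TNFRSF1B furthest below it.

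On the coordinates shared by all files, TNFRSF8 and TNFRSF1B were the only members next to each other among tested genes, 46.7 kb apart on chromosome 1. Of the 16 other tested genes that flank the 9, 14 (87.5%) were called, 8 higher and 6 lower, against 48.2% of all genes. The tested gene before TNFRSF8, from 12004739 to 12014693, was lower in chimpanzee, with a log2 difference of -0.97 (edgeR adjusted p = 0.0115). The one after TNFRSF1B, from 12226890 to 12489734, was higher, at 0.56 (edgeR adjusted p = 0.0396). TNFRSF17 was flanked by genes that were both higher in chimpanzee. The gene after it, 34.9 kb away on chromosome 16 from 12004349 to 12028802, differed by 2.96 (edgeR adjusted p = 3.19e-05). That gene was read weakly, with a mean of 1.01 CPM over the rhesus macaque lines against 8.08 over the chimpanzee lines. On the side before TNFRSF17 the difference was 0.64 (edgeR adjusted p = 0.0303). TNFRSF13C lay between 2 genes that were both lower in chimpanzee, by log2 differences of -1.17 and -2.29 (edgeR adjusted p = 0.00184 and 0.000104). FAS, which was not called itself, lay between 2 genes that were higher in chimpanzee, by 1.81 and 1.84 (edgeR adjusted p = 0.0351 and 0.00181). CD70, also not called, lay between 2 genes that were lower in chimpanzee, by log2 differences of -0.83 and -0.74 (edgeR adjusted p = 0.0113 and 0.0412). The genes on the 2 sides of TNFRSF9 went opposite ways, 1.57 before it and -2.68 after it (edgeR adjusted p = 0.00553 and 5.2e-05). The gene before TNFSF13B was higher in chimpanzee, at 1.65 (edgeR adjusted p = 0.000316). The next tested gene after TNFSF13B, 1447 kb away, was not called, at 0.20 (edgeR adjusted p = 0.838). The gene 1.35 kb after CD27, from 6432494 to 6440365, had a mean of 158 CPM in each species (standard error of the log2 difference 0.26, edgeR adjusted p = 0.995). The gene before CD27 was higher in chimpanzee, at a log2 difference of 2.04 (edgeR adjusted p = 0.0197). Several other flanking genes were also read weakly in 1 species. Means in chimpanzee and rhesus macaque were 11.4 and 2.59 CPM before CD27, 11.2 and 3.05 CPM before FAS, and 2.30 and 14.3 CPM after TNFRSF9.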

How the data were processed

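The deposited files hold raw counts per exon, whole numbers made by the authors, 1 file per library. Per the labels' protocols, Qiagen RNeasy RNA was made into adapter-ligated libraries for a GAII sequencer, and no strand marking is named, so overlapping antisense reads would count too. For the aligner, counter, genome build and exon matching between species, the sources used here give no name. Coordinates are as deposited. Reads shared with similar genes, or lost where 1 species' exon aligns less well, were not tested for.

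Counts were added over the exons of a gene, and an exon missing from a file was taken as 0. Species were compared with edgeR 4.0.16 (limma 3.58.1, R 4.3.3), by the robust quasi-likelihood test with TMM scaling and species as the only term. For the species test genes passed the default filter (a minimum count of 10, scaled to library size, in at least 6 libraries, and a minimum total of 15). P-values were adjusted over all tested genes by the Benjamini-Hochberg method at 0.05. Standard errors are the log2 difference over the root of F, and 95% intervals use the total degrees of freedom of the fit, residual plus prior. Differences beyond 2-fold used glmTreat, exon usage used diffSpliceDGE on exons with at least 10 counts, and sex used a fit of 4 groups. For sex the filter followed the smallest group, the 2 rhesus macaque females, and 11045 genes were tested. Log2 CPM used a prior count of 2. Fits were tried on simulated counts to check the code, and no result given here rests on those runs. For exon usage and sex the simulated spread was a fixed one, not that of these data. DESeq2 1.42.0, limma-voom, other scalings, filters, exons and left-out libraries were alternatives. All 9 genes with counts are named. The genes and tests were chosen with earlier results of these data known. Lists of other family genes and of cell markers need symbols, which matched 0 of the files' identifiers, and were not run. Reads carry no molecular identifiers, so the counts given are of reads, and the number of molecules behind them is not known.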

Additional observations from a re-analysis of the deposited data

Results flagged for a closer look

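TNFRSF9 in rhesus macaque replicate 1 stood at 4.83 CPM, from 8 counts, far below the other 5 rhesus macaque lines, of which the lowest held 27.2 CPM. The gap was larger than Dixon's limit at 95% allows for 6 samples. This was the only flag among 18 groups examined (9 genes in 2 species, on log2 CPM), where chance flags about 1 in 20. Its cause was not tested.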

How the results depend on the processing

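TNFRSF17 and CD27 kept their direction and passed under all 23 alternatives, with log2 differences from 2.59 to 3.42 and from -2.49 to -1.73. Of the 9 genes, 1 was called higher in chimpanzee. Library totals alone and limma-voom each gave 2, and leaving out 1 library gave 1 to 2. Called lower was 1, against 2 without the strongest exon and 1 to 2 with 1 library left out. The added calls were TNFRSF8, TNFRSF13C and TNFRSF1B. Of all genes tested, 48.5% were called in either direction with library totals alone, 48.7% with limma-voom and 46.6% without the strongest exon. With 1 library left out the share ran from 43.6% to 49.5%. Directions turned for CD70 (-0.11) and TNFRSF1B (-0.083) in male lines alone and for TNFSF13B (0.17) and FAS (-0.15) without the strongest exon. None of these 4 was called with all lines and exons. CD70 has no value without its only exon. TNFSF13B has none with all libraries thinned to the smallest. In male lines alone 1371 genes were higher and 1385 lower, against 2329 and 2220 in all lines, with fewer libraries in the fit. A threshold of 1.5-fold called 2821 genes, against 1628 at 2-fold. Exon usage called 426 genes, 1675 by the F test and from 260 (without rhesus macaque replicate 3) to 504 with 1 library left out. Without rhesus macaque replicate 2 it called 263. For sex, where edgeR called 0 genes, DESeq2 called 49 among chimpanzee lines and 14 whose sex effect differed. No paired analysis was possible because each line comes from another animal and the replicate numbers, given in record order, pair nothing. Depth limits TNFSF13B most, at 8 to 42 counts a library. The causes of these shifts were not tested.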
